A study of Mus musculus with 22 samples.

Results

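Accessible chromatin was examined at 4 loci named for genes that mark endothelial tip cells, Esm1, Apln, Pdgfb and Cxcr4, in retinal endothelial cells that were isolated by cell sorting from mouse pups at postnatal day 6. The members are the regions of open chromatin, called from ATAC-seq, whose midpoint lies in 1 of 4 fixed windows of the mm9 genome. These windows are chromosome 13 from 113.9 to 114.1 Mb for Esm1, chromosome X from 45.3 to 45.46 Mb for Apln, chromosome 15 from 79.76 to 79.92 Mb for Pdgfb and chromosome 1 from 130.38 to 130.62 Mb for Cxcr4. They hold 60 of the 49558 gTKO regions and 101 of the 57267 control regions on placed chromosomes (chromosomes 1 to 19, X and Y). The whole lists, unplaced sequences included, hold 50178 and 58311 regions.

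The gTKO pups carried floxed S1pr1 and S1pr2 alleles with Rosa26-CreERT2, a tamoxifen-dependent recombinase driven from a locus that is active in most cell types and so not limited to endothelium. The control pups carried the same floxed alleles without the recombinase. Both genotypes were S1pr3-/- on a C57BL/6 background, and both received 100 µg tamoxifen by injection from postnatal day 1 to 3. The 3 genes encode cell-surface receptors that respond to sphingosine 1-phosphate, a lipid carried in blood, through G proteins. There were 3 ATAC-seq libraries per genotype, each from the pooled retinas of 4 to 6 pups and from 5000 to 8000 sorted cells, but the values exist as 1 peak list per genotype. The difference between the genotypes therefore has no replicate error and no p-value, and every value below describes these 2 lists. The label of the cells also calls them adult, against the age given. Gene positions of mm9 were not used here, so regions are given by position and are not assigned to a promoter, exon or intron, and the endothelial identity of the sorted cells could not be checked against marker genes.

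Tip cells lead each new vascular sprout. They extend filopodia, respond to a gradient of vascular endothelial growth factor and pull along the stalk cells behind them, and in the mouse retina they line the growing front of the vascular plexus in the first days after birth. Sphingosine 1-phosphate signalling through endothelial S1pr1 is known to restrain sprouting in this plexus. Among the 4 genes, Esm1 encodes a secreted proteoglycan (endocan) made by tip cells, Apln the secreted peptide apelin, Pdgfb a growth factor that recruits pericytes to the new sprout, and Cxcr4 the receptor for the chemokine Cxcl12.

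The starts of these genes are shown as the sequences the loci are named for, although the mm9 regions could not be placed on them. Promoters from RefSeq, build GRCm38.p6, were matched for 3 of the 4 genes, and each runs from 250 bases before the gene's start to 50 bases after it. Capitals mark matches on either strand to 8 short motifs, namely AP-1 (TGANTCA), ETS (CCGGAAG), FOX (TGTTTAC), CSL (TGGGAA), SOX (AACAAT), HIF (ACGTG), the GC box (GGGCGG) and the TATA box (TATAAA). The Esm1 promoter is chr13:113209409-113209708 on the plus strand, the Apln promoter chrX:48034804-48035103 and the Cxcr4 promoter chr1:128592250-128592549, the last 2 on the minus strand.
Esm1: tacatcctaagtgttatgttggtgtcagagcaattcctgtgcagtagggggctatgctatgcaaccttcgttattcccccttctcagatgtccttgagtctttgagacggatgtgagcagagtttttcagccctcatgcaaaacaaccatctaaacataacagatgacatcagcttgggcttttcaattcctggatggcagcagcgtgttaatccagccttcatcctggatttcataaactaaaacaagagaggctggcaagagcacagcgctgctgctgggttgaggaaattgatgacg
Apln: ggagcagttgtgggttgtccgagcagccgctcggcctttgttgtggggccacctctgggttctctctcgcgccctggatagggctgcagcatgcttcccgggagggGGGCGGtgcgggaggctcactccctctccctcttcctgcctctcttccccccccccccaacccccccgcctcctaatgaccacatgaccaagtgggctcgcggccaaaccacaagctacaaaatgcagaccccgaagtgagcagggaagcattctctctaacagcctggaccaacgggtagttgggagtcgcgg
Cxcr4: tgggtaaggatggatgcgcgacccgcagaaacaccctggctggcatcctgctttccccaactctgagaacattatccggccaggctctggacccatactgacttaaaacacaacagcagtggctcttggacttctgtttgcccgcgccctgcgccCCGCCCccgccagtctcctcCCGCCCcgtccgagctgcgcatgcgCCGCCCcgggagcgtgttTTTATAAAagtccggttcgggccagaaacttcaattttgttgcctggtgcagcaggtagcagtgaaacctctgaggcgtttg
The Esm1 promoter held none of the 8 motifs and the Apln promoter 1 GC box, at -144 from the start. The Cxcr4 promoter held 3 GC boxes, at -95, -75 and -50, and overlapping TATA box letters on both strands, beginning at -32 and -30. Of 32544 different RefSeq promoters of this length, 35.9% held the GC box letters and 13.6% the TATA box letters. The AP-1 letters, the motif of the factors named in the study's title, were in 7.79% of those promoters and in none of these 3. GC content was 46.3% for Esm1, 64.0% for Apln and 59.3% for Cxcr4, beside a median of 53.0% over all promoters.

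The loci differed in what the genotypes showed. At Pdgfb the gTKO list held 30 regions and the control list 72, and 44 of these control regions had no gTKO counterpart. At Esm1 (9 gTKO and 7 control regions), Apln (13 and 15) and Cxcr4 (8 and 7), most regions were called in both genotypes. The exceptions were 2 gTKO regions at Esm1, 2 control regions at Apln and 1 gTKO region at Cxcr4. A region counts as shared below if 1 bp or more of it is covered by the opposite list, and the remaining regions are called gTKO-only or control-only. Over the 4 loci, 3 of 60 gTKO regions were gTKO-only (5.00%, exact Clopper-Pearson 95% interval 1.04 to 13.9%), beside 9.75% of all placed gTKO regions. Of the 101 control regions, 46 were control-only (45.5%, interval 35.6 to 55.8%), beside 27.0% of all placed control regions. Without Pdgfb, the other 3 loci together had 3 gTKO-only regions of 30 and 2 control-only regions of 29, a control-only share of 6.90% (interval 0.846 to 22.8%). These intervals cover counting error only and treat neighbouring regions as independent.

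**Figure D1:**
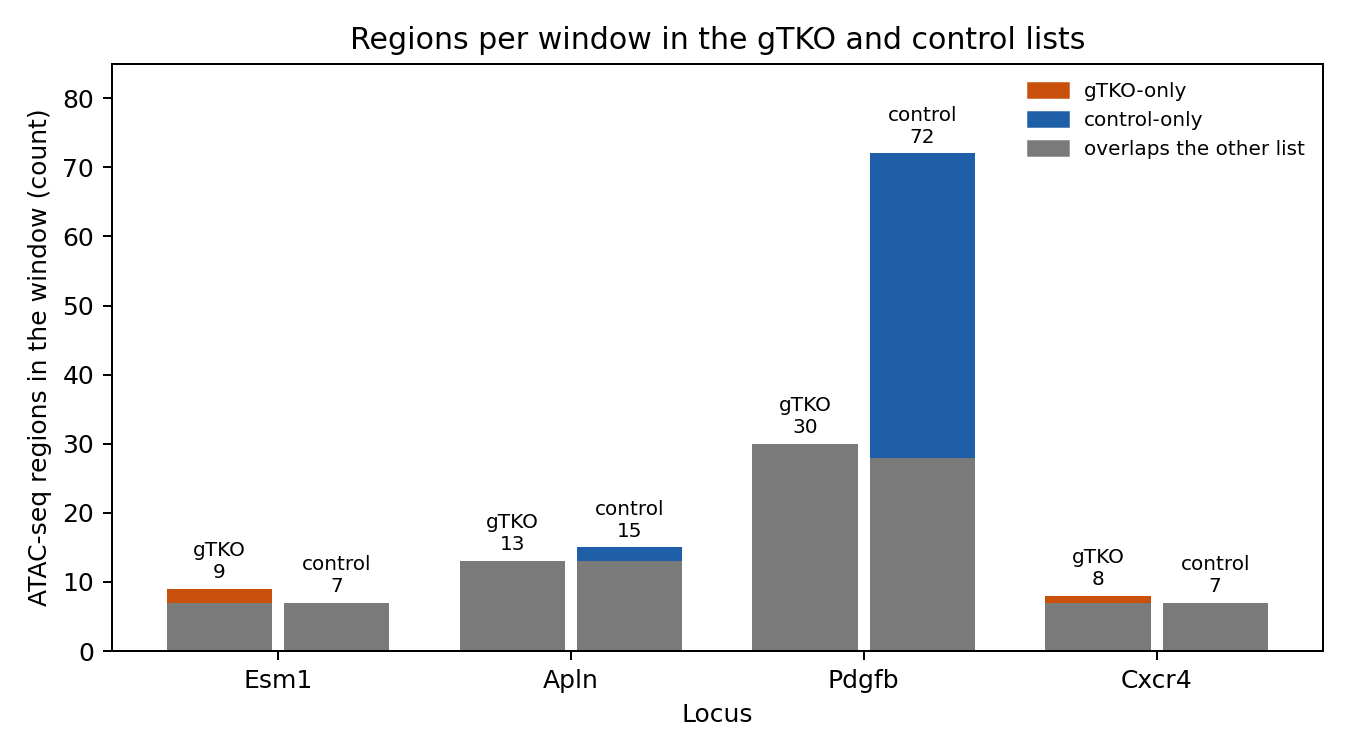
Number of ATAC-seq regions in each window, gTKO list left and control list right, with regions that overlap the other list in grey and regions of 1 list in colour. Pdgfb stands apart through 44 control-only regions, while the other windows hold 0 to 2 one-list regions per list.

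**Figure D2:**
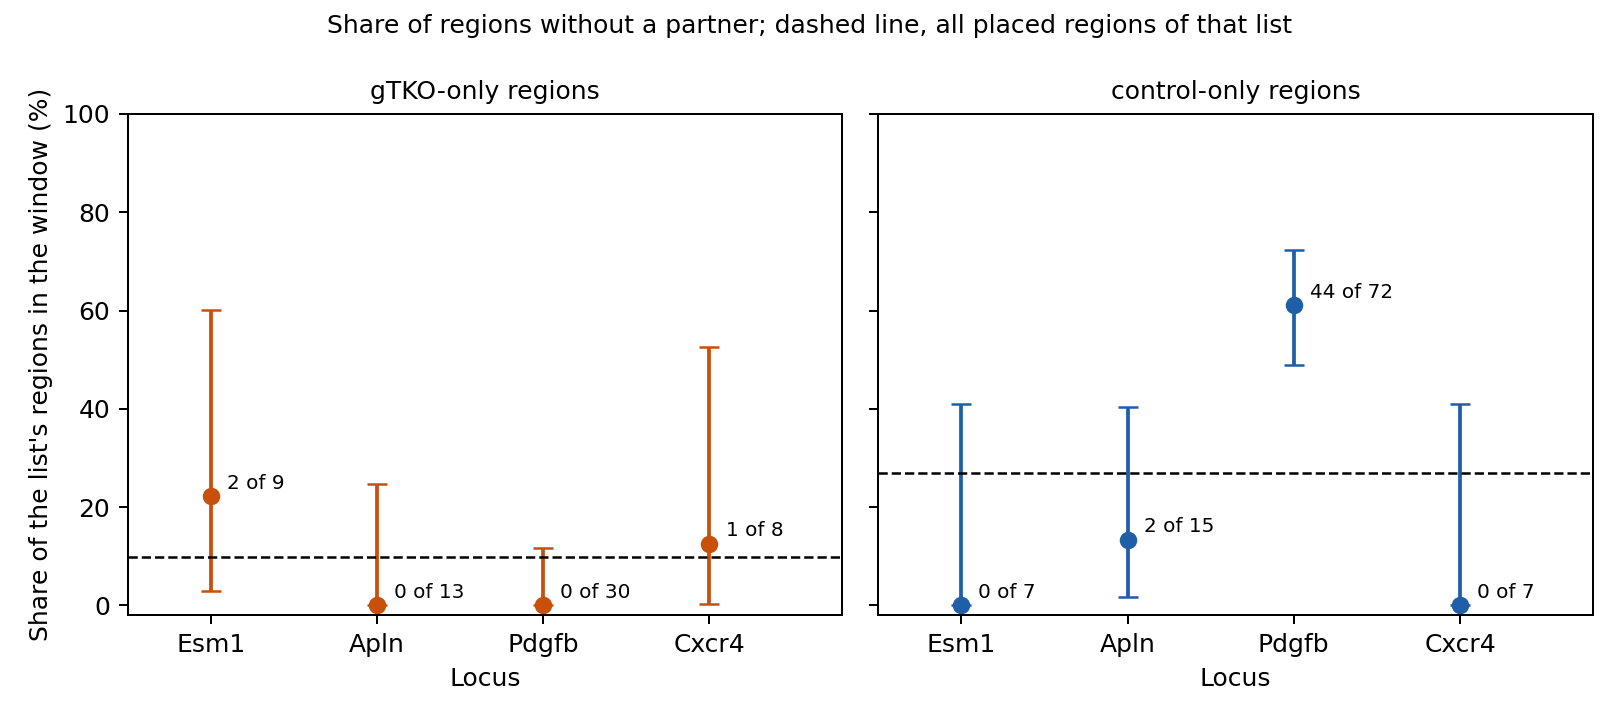
Share of each list's regions without a partner in the other list, by locus, in percent, with exact 95% binomial intervals that cover counting error only. Dashed lines mark the share over all placed regions, 9.75% for gTKO and 27.0% for control. The Pdgfb control-only share was 61.1% (interval 48.9 to 72.4%). The intervals treat neighbouring regions as independent and do not test a difference between the genotypes.

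Covered sequence followed the same order. The gTKO list covered 16767 bp of the Pdgfb window and the control list 32720 bp, a ratio of 0.512. At Apln the gTKO list covered 6127 bp and the control list 7862 bp, a ratio of 0.779. That is close to the ratio over all placed chromosomes, where gTKO regions covered 24228 kb and control regions 31430 kb, or 0.771. At Cxcr4 the values were 3852 bp in gTKO and 4074 bp in control, a ratio of 0.946, which turned to 1.05 when regions under 300 bp were left out of both lists. At Esm1 the gTKO list covered more sequence, 3168 bp against 2601 bp in control, a ratio of 1.22. The read depth of the libraries is unknown, and a list made from fewer reads would hold fewer and narrower regions, so each locus is best read against the whole-list values.

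At Esm1, all 7 control regions had a gTKO partner and the gTKO list held 2 further regions, 2 of its 9 (22.2%, interval 2.81 to 60.0%), beside 9.75% of placed gTKO regions. With 7 control regions, a count of 0 control-only regions still allows a share of up to 42.9% (3 counts of the total) or 41.0% (exact interval). Over all placed control regions the share was 27.0%. The regions of 300 bp or wider formed a small set. The widest gTKO region, chr13:114035160-114035788 (629 bp), contained the whole of its control partner, chr13:114035185-114035755 (571 bp). The widest control region was chr13:113999599-114000223 (625 bp), matched in gTKO by 593 bp. A further control region, chr13:114014139-114014706 (568 bp), was matched by a gTKO region of 536 bp that lay within it. The width ratio of the 7 pairs, gTKO over control, ranged from 0.817 to 1.10 with a median of 1.02, so widths at this locus were similar in both lists. The wider of the gTKO-only regions was chr13:113960398-113960792 (395 bp), 1.47 kb from the nearest control region. The other gTKO-only region measured 188 bp and lay 2.61 kb from a control region. Over all placed gTKO regions, 1.67% of those of 300 bp or wider and 19.8% of the narrower ones had no partner.

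At Apln, all 13 gTKO regions overlapped a control region, and 8 of them lay fully within it, beside 62.7% of all placed pairs. The count of 0 gTKO-only regions allows a share of up to 23.1%. The widest region of both lists was the same element, 888 bp in gTKO (chrX:45387408-45388295) and 1090 bp in control (chrX:45387349-45388438). The region at chrX:45358915-45359838 measured 728 bp in gTKO and 924 bp in control. That at chrX:45397052-45397828 measured 574 bp in gTKO and 777 bp in control. The gTKO region was the narrower in 11 of 13 pairs (84.6%, interval 54.6 to 98.1%), beside 79.5% of all placed pairs, and the median width ratio was 0.820, beside 0.866 over all placed pairs. The Apln pairs thus showed about the width difference of the lists as a whole. Of the 15 control regions, 2 were control-only (13.3%, interval 1.66 to 40.5%), beside 27.0% of all placed control regions. These control-only regions were narrow, chrX:45373178-45373416 at 239 bp and another of 158 bp. They lay 13.4 and 37.1 kb from the nearest gTKO region. Apln lies on chromosome X, and the sources used here do not give the sex of the pooled pups.

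At Cxcr4, all 7 control regions had a gTKO partner. Of the 8 gTKO regions, 1 had no control partner (12.5%, interval 0.316 to 52.7%), beside 9.75% of placed gTKO regions. The count of 0 control-only regions allows a share of up to 42.9% (3 counts of the total) or 41.0% (exact interval). The share over all placed control regions was 27.0%. The window is 240 kb long and mostly empty, with one stretch of 108 kb without a region in either list. Its centre was a cluster of 3 regions within 2.81 kb of the control list. In that cluster the gTKO regions measured 500, 874 and 519 bp, and the control regions 934 bp (chr1:130487357-130488290), 971 bp (chr1:130488363-130489333) and 641 bp (chr1:130489526-130490166). Each gTKO region there lay within its control partner. The widest gTKO region was the middle one, chr1:130488415-130489288 (874 bp). The opposite held far from this cluster, where the region at chr1:130597875-130598332 measured 458 bp in gTKO and 202 bp in control, a ratio of 2.27. A neighbouring pair measured 751 bp in both lists (chr1:130601415-130602165 in gTKO and chr1:130601379-130602129 in control). The gTKO-only region, chr1:130600671-130600844, was narrow and lay 534 bp from this pair's control region.

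**Figure D3:**
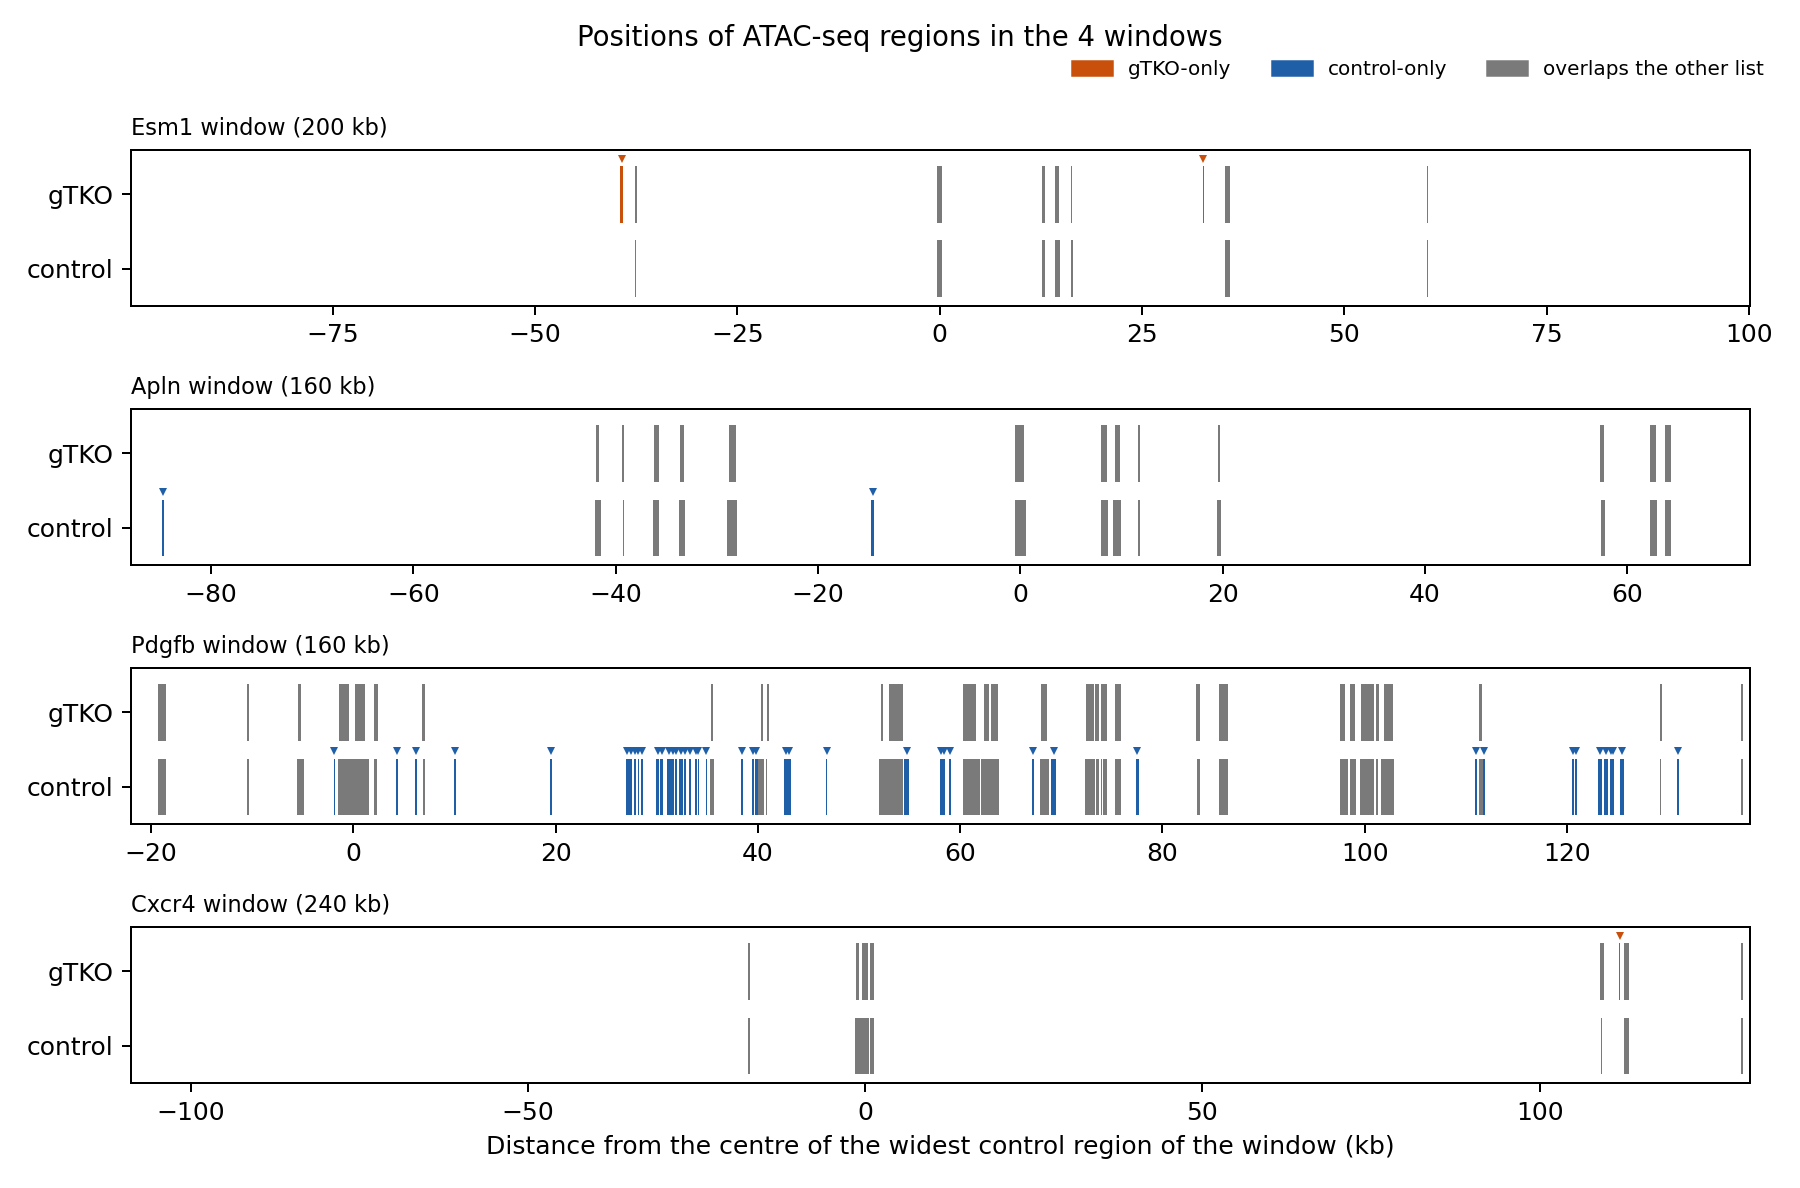
Positions of all regions in the 4 windows, drawn to scale, gTKO above control, in kb from the centre of the widest control region of each window. Triangles mark regions without a partner. In the Pdgfb window 44 control regions are marked and 0 gTKO regions. In the other windows 2 gTKO regions are marked at Esm1, 2 control regions at Apln and 1 gTKO region at Cxcr4.

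Pdgfb was by far the densest of the 4 windows. It held 18.8 gTKO and 45.0 control regions per 100 kb, where the other 3 windows held 3.33 to 8.12 gTKO and 2.92 to 9.38 control regions per 100 kb. Along the placed chromosomes, windows of 160 kb with any region held a median of 3 gTKO and 4 control regions. All 30 gTKO regions in the Pdgfb window overlapped a control region. This count of 0 allows a gTKO-only share of up to 10.0% (3 counts of the total) or 11.6% (exact interval), beside 9.75% of placed gTKO regions. Of the 72 control regions, 44 had no gTKO partner (61.1%, interval 48.9 to 72.4%), beside 27.0% over all placed control regions. The control-only regions covered 10977 bp, 33.5% of the control sequence in the window, beside 11.5% over the whole list. Their median width was 208.5 bp, with a range from 150 to 569 bp, and that of the control regions with a partner was 568.5 bp.

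Narrow and wide control regions both lacked a partner more often here than in the list as a whole. Among control regions under 300 bp, 32 of 41 at Pdgfb were control-only (78.0%, interval 62.4 to 89.4%), beside 52.5% over the placed list. Among those of 300 bp or wider, 12 of 31 were control-only (38.7%, interval 21.9 to 57.8%), beside 8.02% over the placed list. In the gTKO list, 0 of the 10 regions under 300 bp at Pdgfb were gTKO-only. Over the 4 loci it was 2 of 19 (10.5%, interval 1.30 to 33.1%), beside 19.8% over the placed list. Among gTKO regions of 300 bp or wider at the 4 loci it was 1 of 41 (2.44%, interval 0.0617 to 12.9%), beside 1.67%. Windows as crowded as this one were few, and they too had high shares. In the 19 windows of 160 kb with at least 50 control regions, the median control-only share was 45.5% (quartiles 25.9 and 56.5%) and the median ratio of covered bases, gTKO over control, was 0.535 (quartiles 0.457 and 0.910). Choosing windows by their control count favours control-only regions. In the 40 windows with at least 30 gTKO regions, a choice that favours the other direction, the median share was 25.3% (quartiles 16.9 and 40.4%) and the median ratio 0.774 (quartiles 0.677 and 0.953). These windows lie on a fixed grid and can include parts of the Pdgfb window.

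The control-only regions at Pdgfb were not spread evenly. Neighbouring control regions in the window lay a median of 420 bp apart, beside 8527 bp over all placed control regions. Of 71 gaps between them, 37 were 500 bp or less (52.1%), beside 15.4% over the placed list. In gTKO the median gap in the window was 3716 bp, and 20.7% of gaps were 500 bp or less. Whether closely spaced regions are separate elements was not tested. With control regions no more than 3 kb apart chained together, the window held 14 stretches, and 1 stretch held 24 of the 72 control regions and 21 of the 44 control-only regions. It ran over chr15:79808870-79825173 (16.3 kb). The 24 control regions covered 6278 bp and the gTKO list held 3 regions there, which covered 571 bp. Of the control sequence of the stretch, 6.98% was also covered in gTKO. In the rest of the window 23 of 48 control regions were control-only (47.9%, interval 33.3 to 62.8%), and 59.4% of the control sequence was also covered in gTKO. Over all placed control regions, 27.0% were control-only and 71.5% of the sequence was also covered in gTKO. This stretch was chosen after the lists were seen because it held the most control regions, and shorter stretches held more regions per kb. The gTKO list had no region over chr15:79789023-79817320, a gap of 28.3 kb in which 18 control regions lay. The longest gap between control regions in the window was 11.1 kb.

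**Figure D4:**
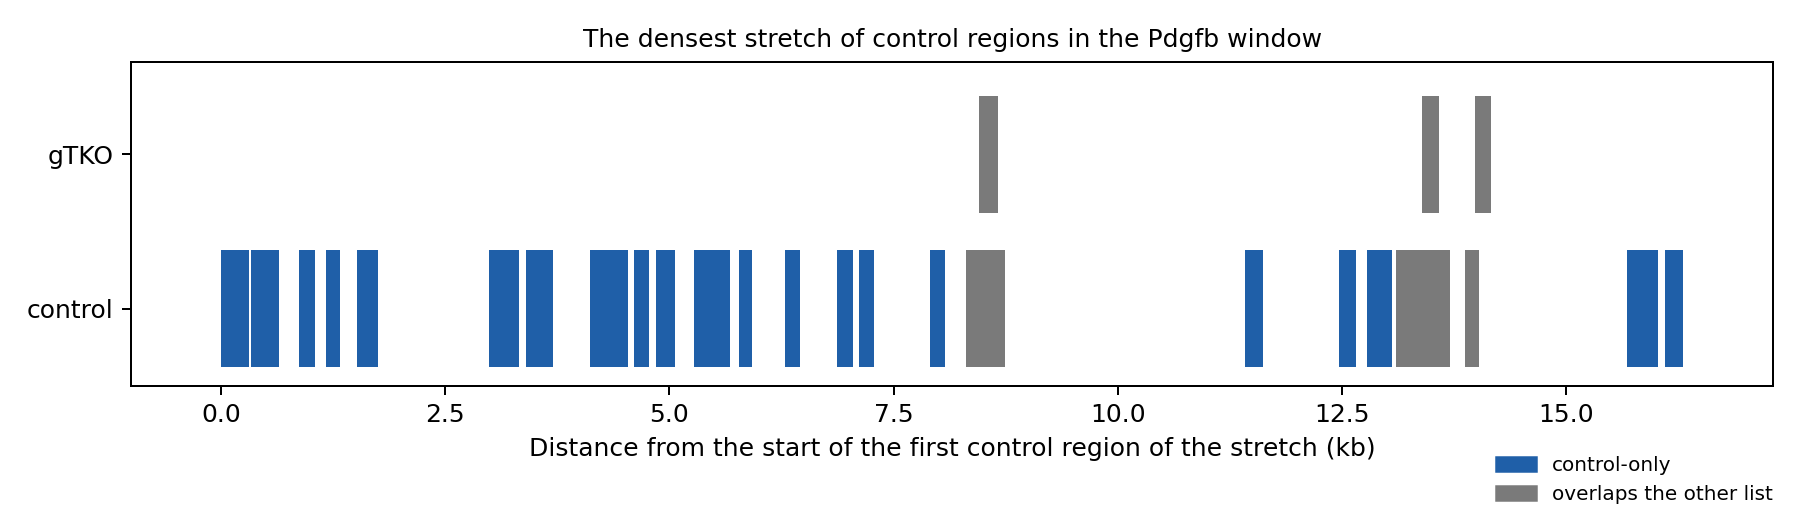
The stretch of the Pdgfb window with the most control regions, gTKO above control, drawn to scale in kb from the start of its first control region. The control list has 24 regions over 16.3 kb, of which 21 have no partner, and the gTKO list has 3. In the title, densest stands for the most control regions.

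A second stretch of this kind lay near the end of the window. Its 7 control regions, over chr15:79902417-79907533, covered 1926 bp and none overlapped a gTKO region. It sat within a gTKO gap of 17.6 kb that held 8 control regions. By contrast, the 5 control regions of the stretch over chr15:79879478-79884800 all had a gTKO partner, with 3405 bp covered in gTKO and 4081 bp in control. The control-only regions lay a median of 2.29 kb from the nearest gTKO region, with a range from 96 bp to 12.3 kb, and 7 of 44 were within 500 bp of one.

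At Pdgfb 12 control-only regions were 300 bp or wider. The widest, chr15:79836365-79836933 (569 bp), lay 119 bp from a gTKO region, and chr15:79850940-79851430 (491 bp) lay 389 bp from one. The stretch with the most control regions held 7 of the 12. These were chr15:79808870-79809180 (311 bp), chr15:79809206-79809518 (313 bp), chr15:79811859-79812195 (337 bp), chr15:79812266-79812567 (302 bp), chr15:79812988-79813409 (422 bp), chr15:79814143-79814546 (404 bp) and chr15:79824546-79824896 (351 bp). They lay 1518 to 8140 bp from the nearest gTKO region. The second stretch held the remaining 3, chr15:79904995-79905380 (386 bp), chr15:79905582-79906031 (450 bp) and chr15:79907196-79907533 (338 bp), which lay 3588 to 5741 bp from a gTKO region.

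Some wide control regions at Pdgfb overlapped several gTKO regions, as did many wide regions elsewhere. Within the widest control region, chr15:79780385-79783491 (3107 bp), the gTKO list held 2 regions of 1045 and 994 bp. Within chr15:79833911-79836261 (2351 bp) it held regions of 290 and 1324 bp, of which the wider, chr15:79834922-79836245, was the widest gTKO region of the window. Within chr15:79843983-79845763 (1781 bp) it held regions of 485 and 765 bp. The 3 control regions were covered by gTKO regions over 65.6, 68.7 and 70.2% of their length. These 3 were among the 4 control regions of at least 1500 bp in the window, and 35.0% of the 2896 placed control regions of that width overlapped 2 or more gTKO regions. Over all widths the count was 3 of 72 at Pdgfb, beside 5.28% of placed control regions, and the 29 control regions of the other 3 loci had 0 such cases and none as wide as 1500 bp. The reverse was seen once, where a gTKO region of 573 bp overlapped control regions of 161 and 405 bp. The control region chr15:79842188-79843925 (1738 bp), 57 bp from the control region of 1781 bp, was matched by a single gTKO region of 1262 bp, chr15:79842257-79843518.

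Where a region of one list matched a single region of the other, widths could be compared directly. Over the 4 loci there were 50 such pairs, and the gTKO region was narrower in 33 and wider in 16, with 1 tie. The share narrower was 66.0% (interval 51.2 to 78.8%), beside 79.5% of the 37878 placed pairs. The median widths were 440.5 bp in gTKO and 553.5 bp in control, and the median ratio within pairs was 0.895 (quartiles 0.743 and 1.03), beside 0.866 over all placed pairs. At Pdgfb 15 of 23 pairs were narrower in gTKO, with a median ratio of 0.835. The extreme pair, on chr15:79821967-79822567 in the stretch with the most control regions, measured 191 bp in gTKO and 601 bp in control, a ratio of 0.318. At Esm1 3 of 7 pairs were narrower in gTKO, at Cxcr4 4 of 7 and at Apln, as given above, 11 of 13. The share was thus above the 79.5% of all placed pairs at Apln and below it at the other 3 loci. The intervals were 9.90 to 81.6% at Esm1, 42.7 to 83.6% at Pdgfb and 18.4 to 90.1% at Cxcr4. Like that of Apln, they all include 79.5%, and none of these differences was tested.

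**Figure D5:**
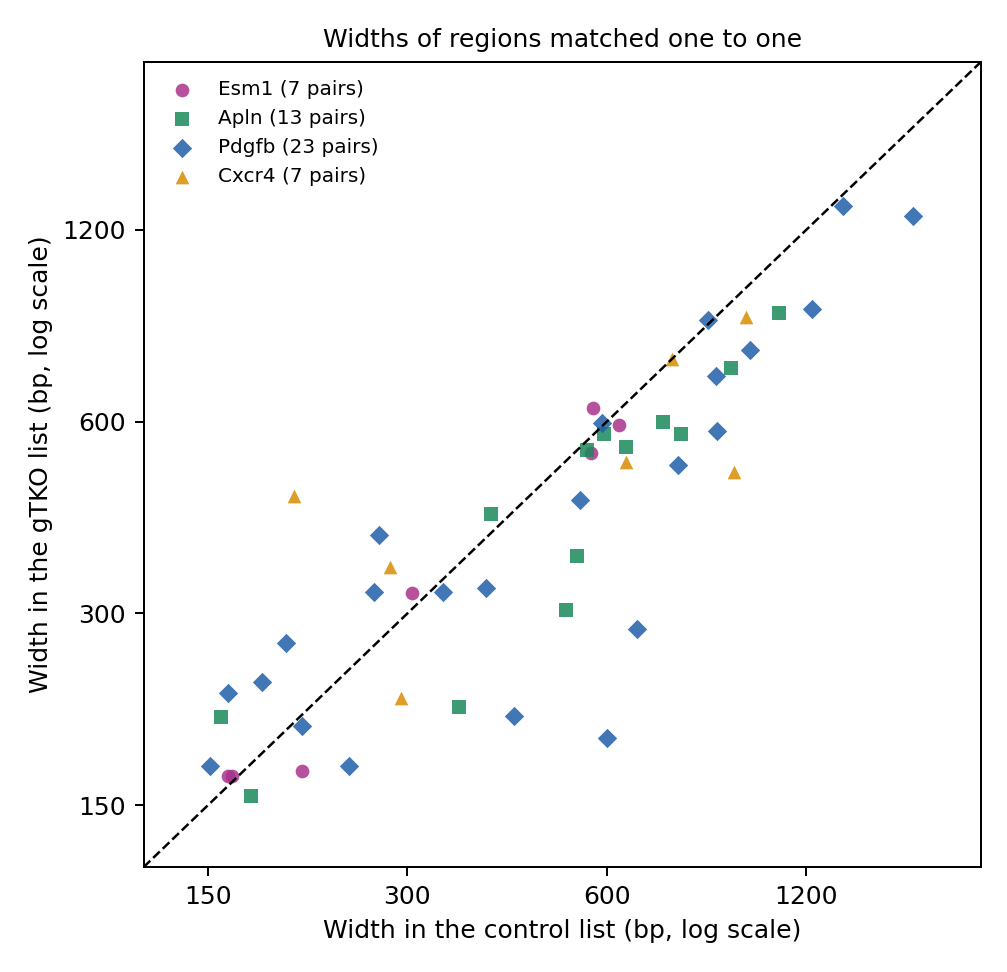
Widths in bp of the 50 regions matched one to one, control on the horizontal and gTKO on the vertical axis, both on a log scale, with equal widths on the dashed line. Points below the line (33 of 50) are narrower in gTKO, and the 7 Esm1 pairs lie close to the line.

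The windows were set by position, so regions near an edge belong or not by a small distance. At the right edge of the Pdgfb window the last regions inside were 200 bp wide in gTKO and 208 bp in control, 0.783 and 0.775 kb from the edge. The first regions outside were 513 bp wide in gTKO and 226 bp in control, 1.81 and 1.30 kb beyond it. At the left edge the nearest regions outside were 475 bp wide in gTKO and 669 bp in control, 1.70 and 1.65 kb away. At Esm1 both edges were more than 39 kb from any region of either list. A window can hold more than the gene it is named for. In GRCm38, the protein-coding neighbours of Pdgfb are Cbx7 on one side and Rpl3, which encodes a ribosomal protein, on the other. Those of Esm1 are Gzmk and Cspg4b, those of Apln are Ocrl and Xpnpep2, and those of Cxcr4 are Dars and Thsd7b. Which regions of the 160 kb Pdgfb window belong to Pdgfb and which to a neighbour was not tested.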

How the data were processed

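ATAC-seq measures open DNA by cutting it with the Tn5 transposase. The deposited lists, 1 for the 3 libraries of each genotype, hold 3 columns, the sequence name, start and end of each peak, and no score, fold enrichment or p-value. Per the submitters' processing notes the build is mm9 and the tools named include Bowtie2, Picard, MACS2 and bedtools. The calling threshold, filters, depth and any pooling of reads were not given in the sources used here. The series also lists 16 RNA-seq libraries, not analysed here.

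Starts were converted to count from 1. Regions on unplaced sequences (620 gTKO, 1044 control) were left out. No region overlapped another of its list. Members and comparisons were chosen with earlier results of these data known. Named regions are the 3 widest control regions and the widest gTKO region of each locus, every one-list region of at least 300 bp and, failing that, the widest one. A few further regions that the text describes were chosen after their values were seen. The overlap procedure was tested on simulated data. Python 3.11.15, numpy 2.4.6, pandas 2.3.3, scipy 1.17.1 and matplotlib 3.10.9 were used.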

Additional observations from a re-analysis of the deposited data

How the results depend on the processing

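The excess of control-only over gTKO-only regions at the 4 loci (46 and 3) rests on Pdgfb. Without that locus there were 2 control-only and 3 gTKO-only regions, and without Esm1 1 gTKO-only region. With both lists limited to regions of 300 bp or wider, 16 were control-only, 15 of them at Pdgfb (48.4% of its control regions against 61.1%), and 5 gTKO-only. This setting counts regions whose only partner was narrower. gTKO-only regions numbered 5 when 50% of a region's own length had to be covered, 13 when 50% of both regions had to be, and 9 when the control list was cut to its widest regions, which removes partners. The overlap, width and list-size settings also change the one-list shares over all placed regions, which were not computed. These counts, and the 48.4%, thus have no background share beside them. Without the Pdgfb stretch with the most control regions, 25 control-only regions were counted, 23 of them at Pdgfb (47.9%). That setting was added after seeing the data. The ratio of covered bases at Cxcr4 was reversed, at 1.05 against 0.946, with regions of at least 300 bp. This cut drops 3 control and 2 gTKO regions there. Control regions of 202 and 282 bp drop out while their gTKO partners, 458 and 355 bp wide, stay in. The other 54 of 67 values under the alternatives kept their direction and stayed within 1.5 times (for the Pdgfb share, within its interval). At Pdgfb the ratio ranged from 0.466 to 0.613 around 0.512. No paired analysis was possible because the 3 libraries of a genotype share a single list, and for that reason no library could be left out. The depth behind the lists is unknown, and its effect was not tested.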
